A study of Mus musculus with 8 samples.

Results

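Myc, its partner Max, the other Max partners Mxd1, Mxd4 and Mxi1, and 41 growth genes were followed in activated mouse CD4 T cells. The 41 are genes of ribosome production and cell growth that are widely described with Myc. The 46 genes were a named list, matched by symbol through the Ensembl IDs of the count files, and all 46 were found among the 39179 genes listed. All 46 also passed the low-count filter and so stood among the 11475 genes tested, with at least 86 counts in every library. The list was not chosen on values from the files, although it was drawn up with earlier results from the same data known.

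The cells came from Smarta mice, whose CD4 T cells carry 1 transgenic receptor for the viral peptide GP61-80, on a background with the tamoxifen-activated recombinase CreERT2, so every group carried both alleles. They were transduced with a retroviral vector that expresses Bach2 after induction, or with the matching empty vector, and transferred into C57BL/6 mice immunized under the skin with nitrophenol and GP61-80 on mouse serum albumin. All groups received tamoxifen on day 5, including those with the empty vector, and cells were collected 18 hours later from pooled inguinal lymph nodes. Cells positive for Thy-1.1 and high in CD44 were sorted as follicular helper cells (Tfh, with CXCR5 and PD-1) or as non-Tfh cells (without either), which gave 4 groups of 2 libraries: Tfh or non-Tfh cells with the empty vector, and Tfh or non-Tfh cells with the Bach2 vector. The age and sex of the mice were not given in the sources used here, and neither was the origin of replicates, so p-values measure only the spread between these libraries, which may be technical.

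Myc is a transcription factor that binds DNA as a dimer with Max, most strongly at the E-box CACGTG, while the Mxd family and Mxi1 compete for Max and repress. Its best known targets build ribosomes: RNA polymerase I transcribes the ribosomal RNA precursor, small nucleolar ribonucleoproteins (snoRNPs) modify it, and assembly factors cut, fold and export the small and large subunits. Activated T cells raise Myc early and grow before they divide, and the polyamine, pyrimidine and translation genes in the list belong to the same growth programme.

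The promoter is shown first for the members because the E-box is the site the Myc and Max dimer reads. RefSeq promoter windows (assembly GRCm38.p6, 250 bases before to 50 bases after a start site) were given for 38 of the 46 members. Myc, Npm1, Fbl, Rrp12, Bop1, Rrs1, Srm and Eif4ebp1 had no window. The letters CACGTG, which read the same on both strands, stood in a window of 11 of these 38 members (28.9%), against 1053 of 8721 tested genes (12.1%) and 2187 of all 27025 genes with a window (8.09%). The 11 were Eif4a1, Eif4e, Eif5a, Ltv1, Max, Mxd4, Mybbp1a, Nop2, Pes1, Utp20 and Wdr43. Below are stretches around the E-box, in capitals, for 4 members whose transcripts were lower in Tfh cells with both vectors (Mybbp1a, Eif5a, Ltv1 and Wdr43), 1 that was lower with the Bach2 vector alone (Nop2) and 2 for which no difference passed the test (Max and Pes1). Each is written 5′ to 3′ on the gene's strand.
Mybbp1a, chr11:72441355-72441376, plus strand: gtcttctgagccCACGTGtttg
Eif5a, chr11:69921443-69921472, minus strand: aaggggcggggtCACGTGtgtgcgtcatcc
Ltv1, chr10:13193092-13193121, minus strand: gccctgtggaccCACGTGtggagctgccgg
Wdr43, chr17:71616220-71616249, plus strand: cgcccgggcgaaCACGTGgctgccgcggag
Nop2, chr6:125131811-125131840, plus strand: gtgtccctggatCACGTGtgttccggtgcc
Max, chr12:76962234-76962263, minus strand: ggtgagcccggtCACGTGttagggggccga
Pes1, chr11:3963965-3963994, plus strand: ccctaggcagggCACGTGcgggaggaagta

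An E-box was present in 4 of 20 members that were lower in Tfh cells with both vectors (20%) and in 4 of 10 that were lower with neither (40%), so members with and without these letters appear on both sides. A match is a description of the letters and not evidence of binding. Gar1, a core protein of the H/ACA snoRNPs that was lower in Tfh cells with both vectors, had no E-box in its window, whereas the window of Nop2, a methyltransferase of large subunit RNA, had 1. The 250 bases upstream of both genes are given with the E-box in capitals.
Nop2, chr6:125131633-125131882, plus strand: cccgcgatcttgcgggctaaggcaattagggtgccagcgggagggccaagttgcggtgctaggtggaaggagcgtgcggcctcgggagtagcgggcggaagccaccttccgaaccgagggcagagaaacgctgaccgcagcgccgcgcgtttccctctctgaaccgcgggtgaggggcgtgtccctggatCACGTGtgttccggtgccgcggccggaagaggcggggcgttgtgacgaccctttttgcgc
Gar1, chr3:129831397-129831646, minus strand: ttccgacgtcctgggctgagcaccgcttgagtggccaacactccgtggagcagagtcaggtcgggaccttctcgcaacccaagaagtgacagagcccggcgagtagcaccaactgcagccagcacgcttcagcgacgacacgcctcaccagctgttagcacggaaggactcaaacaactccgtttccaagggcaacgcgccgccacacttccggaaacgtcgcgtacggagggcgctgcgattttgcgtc
The AP-1-type letters TGAGTCA, with TGACTCA on the other strand, a motif of the basic leucine zipper class to which Bach2 belongs, were in no window of the 38 members, against 360 of 8721 tested genes (4.13%). This search was added after the data had been seen, and the absence says only that these letters are not in these windows.

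Library totals ran from 7862879 to 9889859 counts, and between 14689 and 15167 genes had a count. Bach2 itself, the check of the vector labels, rose with its vector from 12.6 ± 1.99 to 128 ± 9.85 CPM (counts scaled to library size) in Tfh cells and from 26.9 ± 2.87 to 144 ± 19.1 CPM in non-Tfh cells (SD, n = 2), with vector and endogenous transcripts counted together. The sorted cells matched their gates: Cxcr5 was at 577 to 815 CPM in Tfh and 17.4 to 28.3 CPM in non-Tfh libraries. Pdcd1, which encodes PD-1, was at 381 to 659 and 95.9 to 202 CPM. Of the 8 Tfh markers, Icos went the other way within each vector. It was at 585 and 747 CPM in Tfh against 938 and 915 CPM in non-Tfh libraries with the empty vector. With Bach2 it was at 542 and 586 against 693 and 641 CPM. All 7 CD4 T cell markers were above the floor of 3 counts in each group. Among markers of other cells, myeloid genes summed to at most 12.5 CPM and erythroid genes to at most 0.109 CPM. Some markers moved with the cell type: the 8 B cell genes summed to 684 to 823 CPM in Tfh and 323 to 430 CPM in non-Tfh libraries, nearly all of it Ighm. The 6 dendritic cell genes summed to 4.71 to 9.03 CPM in Tfh and 21.03 to 27.8 CPM in non-Tfh libraries, the 4 natural killer and CD8 T cell genes to 74.8 to 113 and 23.8 to 36.4 CPM, and the regulatory T cell pair Foxp3 and Ikzf2, almost all of it Ikzf2, to 71.5 to 100.5 and 12.2 to 18.5 CPM. In the natural killer and CD8 T cell sum, Klrb1c was at 54.4 to 93.9 and 9.01 to 17.5 CPM. Cd8b1 was at 14.7 to 20.2 and 13.1 to 19.1 CPM, and Ncr1 had no count. The mitochondrial share of counts was 1.10% and 0.953% in Tfh against 0.945% and 0.860% in non-Tfh libraries with the empty vector, and 1.26% and 1.08% against 0.987% and 0.944% with Bach2. The part of these markers and of this share in the differences between cell types was not tested.

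The first comparison asked how the growth genes differed between follicular helper cells and other activated helper cells of the same response. Tfh cells had less Myc transcript and less transcript of many of the ribosome production genes. With the empty vector 26 of 46 members were lower in Tfh cells and 0 were higher, and with the Bach2 vector 34 were lower and 0 were higher (edgeR's quasi-likelihood test, Benjamini-Hochberg adjusted p under 0.05 over all tested genes). The background was 11.3% of tested genes lower and 10.6% higher (21.9% in all) with the empty vector, and 12.7% lower and 11.6% higher (24.4% in all) with the Bach2 vector. The 26 went to 15 without Tfh empty vector replicate 1 and to 16 without either non-Tfh empty vector library. Among the 7415 tested genes within the members' range of abundance, 12.5% and 14.2% were lower.

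Summed over the 46 members, the level was 4390 and 4687 CPM in the 2 Tfh libraries with the empty vector and 5885 and 5717 CPM in the non-Tfh libraries. With the Bach2 vector the sum was 4204 and 4111 CPM in Tfh and 5894 and 5770 CPM in non-Tfh libraries. All 4 Tfh libraries lay below all 4 non-Tfh libraries, and the members made up 0.415% to 0.592% of a library. The median log2 fold change of the members, Tfh over non-Tfh, was -0.41 with the empty vector and -0.55 with the Bach2 vector, against 0.01 and 0.00 over all tested genes. The libraries of the 2 cell types did not overlap, with Tfh lower, for 35 members with the empty vector (background 30.9%) and for 38 with the Bach2 vector (background 30.5%). They did not overlap, with Tfh higher, for 5 and 3 members (background 31.3% and 29.3%). In bulk RNA, fewer cells with a transcript and less transcript per cell cannot be told apart.

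The cell type comparisons contrast separate libraries but share an estimate of the spread, so the tests are not independent. In both of them 25 members passed. This is 25 of the 26 called with the empty vector and 25 of the 34 called with the Bach2 vector, against 945 genes (8.24%) lower in both among all tested. The 25 went to 15 and 16 without the same 3 empty vector libraries. Nob1 passed with the empty vector alone. Another 9 members, given with their adjusted p below, passed with the Bach2 vector alone, and 11 with neither: Max, Mxd1, Mxd4, Mxi1, Ddx21, Nop14, Pes1, Ddx18, Tfb2m, Eif4e and Eif4ebp1. Passing with 1 vector and not with the other does not show a difference between the vectors; the test of that difference is given further on.

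Some of these calls were lost in at least 1 alternative setting or with 1 library left out, always with the direction kept. With the empty vector these were Ebna1bp2, Gnl3, Ltv1, Ncl, Nhp2, Nob1, Nolc1, Nop16, Npm1, Polr1a, Rrp1b, Rrs1 and Wdr43 (highest adjusted p = 0.326, for Ltv1). With the Bach2 vector they were Bop1, Ebna1bp2, Eif4a1, Gar1, Heatr1, Ltv1, Ncl, Nop58, Odc1, Rrp12, Utp20 and Wdr12 (highest adjusted p = 0.316, for Eif4a1).

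**Figure D1:**
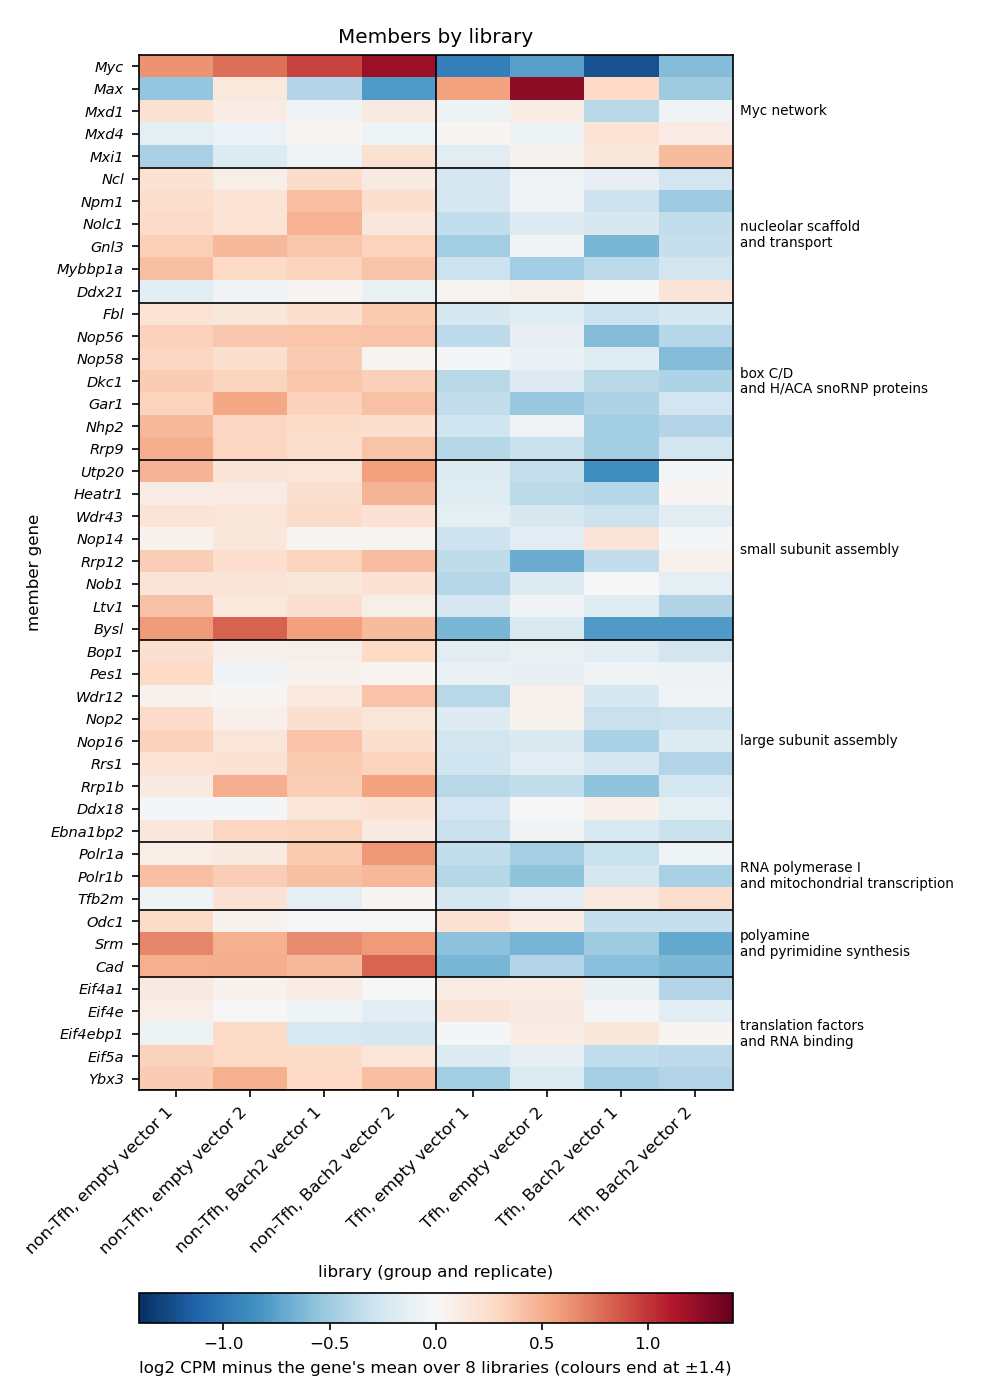
Heat map of the 46 members (vertical axis, grouped by role) in each of the 8 libraries (horizontal axis); the colour is log2 CPM minus the gene's mean over the libraries. The Tfh columns are below the mean and the non-Tfh columns above it for most members outside the Myc network, with both vectors.

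Myc (chromosome 15, 61985391 to 61990374, GRCm38) showed the largest difference in the list. It was at 23.1 and 26.6 CPM in Tfh cells with the empty vector and at 69.6 and 76.5 CPM in the matching non-Tfh cells, and with the Bach2 vector it was at 19.2 and 29.4 CPM in Tfh and 86.4 and 103 CPM in non-Tfh cells. Every Tfh library was below 30 CPM and every non-Tfh library above 69 CPM. The level in Tfh cells was 2.95-fold lower with the empty vector (log2 fold change -1.56, SE 0.175, adjusted p = 3.38e-05) and 3.92-fold lower with the Bach2 vector (-1.97, SE 0.175, adjusted p = 4.61e-06).

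The other Myc network members did not follow Myc. Max, the obligate partner, was at 57.4 and 92.5 CPM in Tfh cells with the empty vector, 26.7 and 43.0 CPM in the matching non-Tfh cells, 46.9 and 27.4 CPM in Tfh cells with Bach2, and 29.1 and 22.4 CPM in non-Tfh cells with Bach2. Its replicates differed by up to 1.71-fold, the estimate of 1.10 (SE 0.374) in Tfh over non-Tfh cells with the empty vector missed the threshold (adjusted p = 0.0920), and so did 0.53 with Bach2 (adjusted p = 0.397). The first of these passed when Tfh Bach2 replicate 1 was left out (adjusted p = 0.0493). These were the highest estimates among the 46 members in both comparisons.
For the repressive partners of Max, estimates are given with the empty and then the Bach2 vector. Mxd1 had -0.14 and -0.26, Mxd4 had 0.09 and 0.17, and Mxi1 had 0.26 and 0.23. None passed the test (adjusted p from 0.202 to 0.551).

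**Figure D2:**
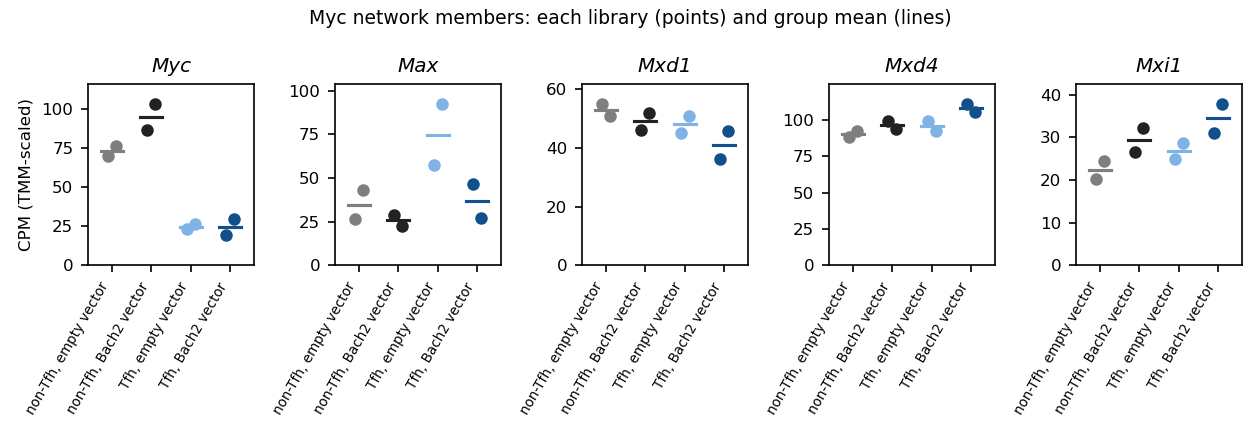
CPM of the 5 Myc network members in each library (points) with group means (lines); each panel has its own vertical axis starting at 0. Myc is at 19.2 to 29.4 CPM in the 4 Tfh libraries and at 69.6 to 103 CPM in the 4 non-Tfh libraries, whereas Mxi1 is at 20.2 to 37.8 CPM over all libraries and the replicates of Max differ by up to 1.71-fold within a group.

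Transcripts of enzymes of polyamine and pyrimidine synthesis had some of the next largest differences. Srm, spermidine synthase, was at 27.6 and 26.1 CPM in Tfh and 66.0 and 57.8 CPM in non-Tfh cells with the empty vector, and at 29.0 and 24.9 against 64.7 and 62.2 CPM with the Bach2 vector. Its Tfh libraries all lay below 30 CPM, and the differences were -1.20 (SE 0.130, adjusted p = 1.48e-05) and -1.23 (SE 0.130, adjusted p = 1.13e-05). Cad, which carries out the first steps of pyrimidine synthesis, was at 43.9 and 51.5 against 96.9 and 97.5 CPM with the empty vector and at 45.9 and 44.2 against 93.9 and 121 CPM with Bach2. Tfh and non-Tfh libraries were again apart, with -1.03 (adjusted p = 5.16e-05) and -1.25 (adjusted p = 9.1e-06). Odc1, ornithine decarboxylase, the first enzyme of polyamine synthesis, did not pass with the empty vector (-0.01, adjusted p = 0.944) and was lower in Tfh cells with the Bach2 vector (-0.32, adjusted p = 0.0208).

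Transcripts of nucleolar proteins were lower in Tfh cells in 5 of 6 cases with each vector. For the counts of this role and the roles below, the background was 11.3% of tested genes lower with the empty vector and 12.7% with Bach2. Npm1, nucleophosmin, a chaperone of ribosomal subunits, was at 237 and 271 CPM in Tfh and 333 and 320 CPM in non-Tfh cells with the empty vector, and at 228 and 197 against 374 and 328 CPM with Bach2. On the log2 scale this was -0.36 (adjusted p = 0.0167) and -0.72 (adjusted p = 0.000116), and the 4 Tfh libraries lay below the 4 non-Tfh libraries. Ncl, nucleolin, an abundant nucleolar RNA binding protein, had -0.29 and -0.38. Nolc1, a chaperone of snoRNPs, had -0.49 and -0.61. Gnl3, nucleostemin, had -0.65 and -0.82, and Mybbp1a, a nucleolar protein that binds Myb, had -0.74 and -0.67. The RNA helicase Ddx21 was the exception, with 0.15 (adjusted p = 0.277) and 0.13 (adjusted p = 0.342). Exons of Gnl3 overlap those of Pbrm1 on the opposite strand by 15 bases, and the library kit does not mark strand.

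Among transcripts of the snoRNP proteins, 5 of 7 were lower in Tfh cells with the empty vector and all 7 with the Bach2 vector. Nop56, a box C/D core protein that guides ribose methylation, was at 77.4 and 92.2 CPM in Tfh and 125 and 130 CPM in non-Tfh cells with the empty vector, and at 65.8 and 76.0 against 131 and 132 CPM with Bach2. Tfh cells had -0.59 (SE 0.107, adjusted p = 0.00116) and -0.89 (1.85-fold lower, SE 0.108, adjusted p = 3.82e-05), with no overlap between cell types. Dkc1, dyskerin, the pseudouridine synthase of the H/ACA complex, had -0.62 and -0.77, and its partners Gar1 and Nhp2 had -0.86 and -0.72, and -0.54 and -0.68. Rrp9, which binds the U3 particle, had -0.77 and -0.71. Fbl, fibrillarin, the ribose methyltransferase, had -0.38 (adjusted p = 0.0517) and -0.58 (adjusted p = 0.00478), and its partner Nop58 had -0.32 (adjusted p = 0.129) and -0.57 (adjusted p = 0.00938). A transcript of Tulp4, at 39.5 CPM against 32.5 CPM for Fbl over all libraries, holds a stretch nearly identical to Fbl, so the split of reads between them is uncertain.

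Assembly of the small subunit was represented by 8 members, of which 5 were lower in Tfh cells with the empty vector and 6 with Bach2. Bysl, needed for maturation of the small subunit, was at 23.0 and 31.0 CPM in Tfh and 54.2 and 63.7 CPM in non-Tfh cells with the empty vector, and at 20.7 and 20.7 against 53.5 and 48.8 CPM with Bach2. The differences were -1.13 (SE 0.153, adjusted p = 0.000101) and -1.30 (SE 0.157, adjusted p = 3.63e-05). Bysl shares 361 exon bases with the far more abundant Ccnd3 on the opposite strand, a cyclin that was itself lower in Tfh cells by -1.15 and -0.98 on the log2 scale, and reads of the shared bases cannot be told apart. Exons of Heatr1, Bop1, Dkc1, Nhp2, Rrp9 and Nop56 also overlap an expressed gene on the other strand, by 5 bases (Nop56) to 155 bases (Heatr1). Rrp12, an export factor, had -0.80 and -0.51, Wdr43, of the early small subunit precursor, had -0.36 and -0.46, and Ltv1, a late assembly factor, had -0.42 and -0.45. Nob1, the nuclease that makes the mature end of the small subunit RNA, had -0.47 (adjusted p = 0.0165) and -0.25 (adjusted p = 0.176). Utp20 and Heatr1, large scaffold proteins of the precursor, had -0.59 and -0.77 (adjusted p = 0.125 and 0.0469) and -0.37 and -0.52 (adjusted p = 0.0715 and 0.0133). Nop14 had -0.33 (adjusted p = 0.105) and 0.05 (adjusted p = 0.830).

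For the large subunit, 4 of 9 members were lower with the empty vector and 7 with Bach2, and all 9 estimates were below 0 with both vectors. The members lower with both were Rrp1b (-0.70 and -0.86), Nop16 (-0.48 and -0.64), Rrs1 (-0.41 and -0.65) and Ebna1bp2 (-0.41 and -0.48), all factors of the nucleolar precursor. Bop1, Pes1 and Wdr12 form 1 complex needed for large subunit RNA processing, and their values differed in size: Bop1 had -0.28 (adjusted p = 0.0603) and -0.39 (adjusted p = 0.0106), Wdr12 had -0.19 (adjusted p = 0.391) and -0.41 (adjusted p = 0.0465), and Pes1 had -0.23 (adjusted p = 0.148) and -0.09 (adjusted p = 0.580). Nop2 had -0.24 (adjusted p = 0.162) and -0.51 (adjusted p = 0.00552). The helicase Ddx18 had -0.11 and -0.22 and passed with neither vector.

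Of the subunits of RNA polymerase I, the members held only Polr1a and Polr1b, and both transcripts were lower in Tfh cells with both vectors. Polr1b, the second largest subunit, was at 21.8 and 19.4 CPM in Tfh and 38.4 and 36.4 CPM in non-Tfh cells with the empty vector, and at 24.4 and 20.9 against 38.4 and 39.5 CPM with Bach2. Those levels did not overlap between cell types, and the differences were -0.86 (adjusted p = 0.000555) and -0.78 (adjusted p = 0.00102). Polr1a, the largest subunit, had -0.51 and -0.67. Tfb2m, a factor of mitochondrial transcription, had -0.27 and 0.24 and passed with neither vector.

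Translation genes were divided. Eif5a, the factor that carries hypusine, an amino acid made from spermidine, was at 747 and 788 CPM in Tfh and 1067 and 1033 CPM in non-Tfh cells with the empty vector, and at 670 and 664 against 1017 and 963 CPM with Bach2. All Tfh libraries lay below all non-Tfh libraries, with -0.45 (SE 0.0752, adjusted p = 0.000571) and -0.57 (SE 0.0754, adjusted p = 8.12e-05). Ybx3, a cold shock domain protein that binds RNA, had -0.75 and -0.79. Eif4a1, the helicase of the cap complex, had 0.03 (adjusted p = 0.885) and -0.30 (adjusted p = 0.0392), while the cap binding protein Eif4e (0.11 and 0.03) and its inhibitor Eif4ebp1 (-0.06 and 0.32) passed with neither.

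**Figure D3:**
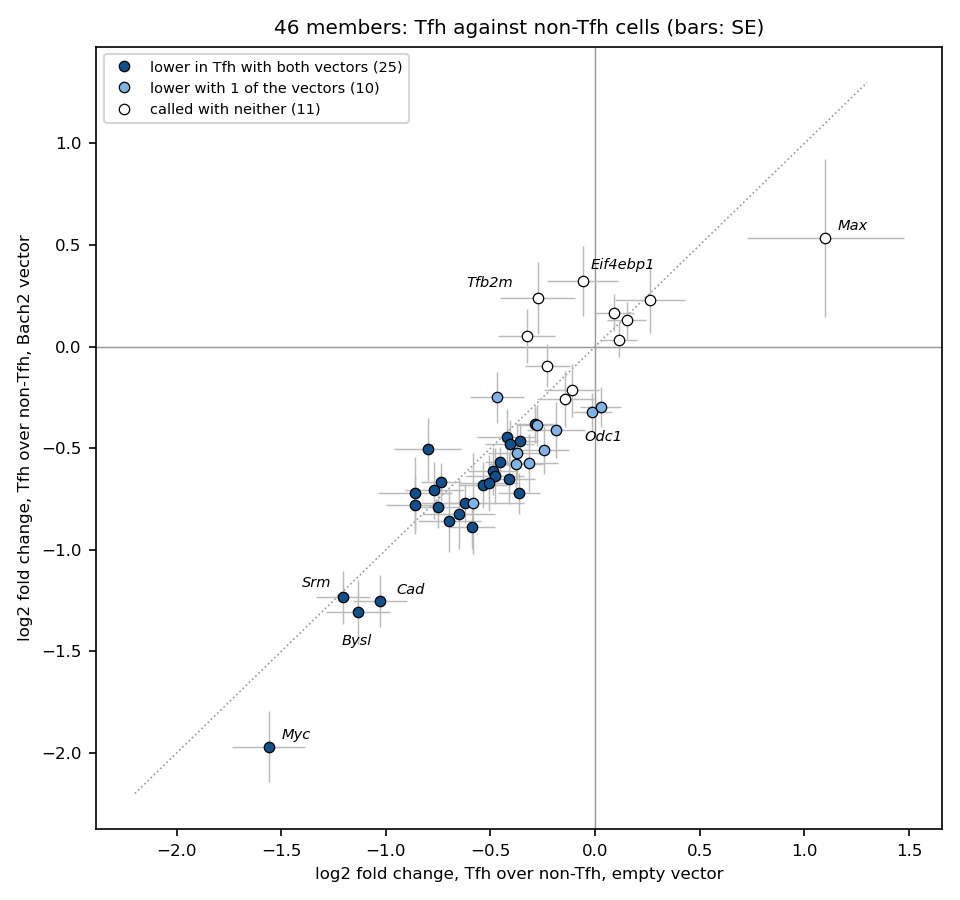
Log2 fold change of each member, Tfh over non-Tfh cells, with the empty vector (horizontal axis) and with the Bach2 vector (vertical axis), with standard errors as bars and the diagonal as a dotted line. Myc lies farthest to the lower left at -1.56 and -1.97, followed by Srm, Cad and Bysl, and 25 members (dark) were lower with both vectors.

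Per kilobase of exon, the abundance of the members differed widely. Averaged over the 4 groups, Eif5a was at 365 CPM per kb, Npm1 at 107, Ybx3 at 72.3, Eif4a1 at 67.6 and Ncl at 62.2 CPM per kb. Myc stood 23rd of 46 at 20.0 CPM per kb, and Utp20 was lowest at 2.93 CPM per kb. In non-Tfh cells Myc was at 26.9 ± 1.79 CPM per kb with the empty vector and 34.9 ± 4.36 CPM per kb with Bach2, and in Tfh cells at 9.14 ± 0.911 and 8.94 ± 2.64 CPM per kb (SD, n = 2). The order of the 4 groups for Myc was thus non-Tfh with Bach2, non-Tfh with empty vector, then the 2 Tfh groups, whose values overlapped. Neither step between vectors within a cell type passed the test.

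The second comparison asked what induced Bach2 did to the same genes within each cell type. At 18 hours after induction 1 member differed between the vectors past the threshold, and that was in Tfh cells. In Tfh cells 1 of 46 members fell and 0 rose (background 1.16% lower, 0.549% higher), and in non-Tfh cells 0 fell and 0 rose (background 0.619% lower, 0.253% higher). The test and adjustment were those used for the cell types, and 1.71% and 0.871% of tested genes passed it in either direction. At an unadjusted p under 0.05 there were 14 members in Tfh cells (30.4%, against 15.9% of all tested genes) and 3 in non-Tfh cells (6.52%, against 10.4%). DESeq2 called 2 members in Tfh cells (3.61% of its tested genes) and 0 in non-Tfh cells (1.09%).

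The member that fell was Odc1 (chromosome 12, 17544794 to 17551505, GRCm38). It was at 155 and 145 CPM in Tfh cells with the empty vector and at 108.2 and 108.2 CPM with Bach2, and at 163 and 140.0 CPM in non-Tfh cells with the empty vector and 136 and 135 CPM with Bach2. The 2 Bach2 libraries lay below the 2 empty vector libraries in both cell types, with a wider gap in Tfh cells. The fold was 1.39 lower in Tfh cells (log2 fold change -0.47, SE 0.0930, adjusted p = 0.0201), and the change of -0.16 in non-Tfh cells did not pass (95% interval -0.36 to 0.03, adjusted p = 0.584). The difference between the cell types did not pass either (-0.31, adjusted p = 0.985). Averaged over both cell types Odc1 fell by 0.32 on the log2 scale (SE 0.0654, adjusted p = 0.0140). Other genes hold 3 transcripts nearly identical to Odc1, of which 1, Gm9115, was among the counted genes, at 0.555 CPM. The split of reads between Odc1 and these copies is uncertain. The call in Tfh cells was lost when any 1 of the 4 Tfh libraries was left out (adjusted p up to 0.117), and the averaged call without non-Tfh empty vector replicate 1 (adjusted p = 0.0784).

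Myc did not pass in either cell type. In Tfh cells its log2 fold change with Bach2 was -0.03 (95% interval -0.43 to 0.37, adjusted p = 0.951), and the libraries overlapped. In non-Tfh cells it was 0.38 (95% interval 0.03 to 0.73, adjusted p = 0.440), with both Bach2 libraries above both empty vector libraries. The difference between these effects was -0.41 (95% interval -0.94 to 0.12, adjusted p = 0.998). The direction in Tfh cells turned when Tfh empty vector replicate 2 (0.07) or Tfh Bach2 replicate 1 (0.25) was left out.

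Max had the lowest estimate in Tfh cells, -1.003 (95% interval -1.91 to -0.09, adjusted p = 0.271), and in non-Tfh cells, -0.44 (adjusted p = 0.791). The Myc antagonist Mxi1 had the highest estimate in non-Tfh cells, at 20.2 and 24.4 CPM with the empty vector and 26.5 and 32.1 CPM with Bach2 (0.40, adjusted p = 0.421), and 24.9 and 28.7 against 31.0 and 37.8 CPM in Tfh cells (0.36, adjusted p = 0.299). Both Bach2 libraries were above both empty vector libraries in each cell type, and the averaged effect of 0.38 missed the threshold (adjusted p = 0.0781). Mxd1 had -0.23 and -0.11 in Tfh and non-Tfh cells, and Mxd4 had 0.17 and 0.09.

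Outside the Myc network the estimates in Tfh cells ran from -0.47 for Odc1 to 0.39 for Tfb2m (adjusted p = 0.305). The translation helicase Eif4a1 came nearest to the threshold after Odc1: it was at 316 and 315 CPM with the empty vector and 271 and 219 CPM with Bach2, with -0.36 (SE 0.0980, adjusted p = 0.0808). In non-Tfh cells it was at 318 and 301 against 314 and 289 CPM, with -0.04. Other genes hold 2 transcripts nearly identical to Eif4a1, of which 1 was among the counted genes. The estimates for Bysl (-0.38), Nop58 (-0.31), Nhp2 (-0.28), Nop56 (-0.26) and Npm1 (-0.25) were below 0 in Tfh cells and those for Rrp12 (0.38), Nop14 (0.31) and Nob1 (0.23) above 0, none past the threshold. Over the 46 members, the median was -0.07 in Tfh and 0.03 in non-Tfh cells, with 29 and 19 estimates below 0. Libraries did not overlap in 13 members that were lower and 8 that were higher in Tfh cells (background 22.9% and 21.7%), and in 7 lower and 12 higher in non-Tfh cells (background 21.3% and 20.9%).

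Changes of moderate size could be bounded for these libraries. The intervals rest on the spread between them, which may be technical. The 95% interval of the vector effect lay wholly within 1.5-fold in either direction for 36 of 46 members in Tfh cells and 40 in non-Tfh cells, and within 2-fold for 45 in each, all but Max. The difference between vector effects, which is also the difference between the cell type effects, passed for 0 of 46 members (background 0%, 0 of 11475 genes). At an unadjusted p under 0.05 there were 3 members and 539 genes, and DESeq2 called 5 genes and 0 members. The estimates ran from -0.57 for Max to 0.52 for Tfb2m with a median of -0.12, and the median interval reached 0.39 to each side. Of the 46 estimates 35 were below 0 and 11 above, against 5830 of 11475 below 0 over all tested genes. So although more members were lower in Tfh cells with Bach2 than with the empty vector, the difference between the vectors passed for none of the 46. Averaged over both cell types, 1 member fell (Odc1) and 0 rose, against 2.9% and 2.37% of tested genes (5.27% in either direction).

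**Figure D4:**
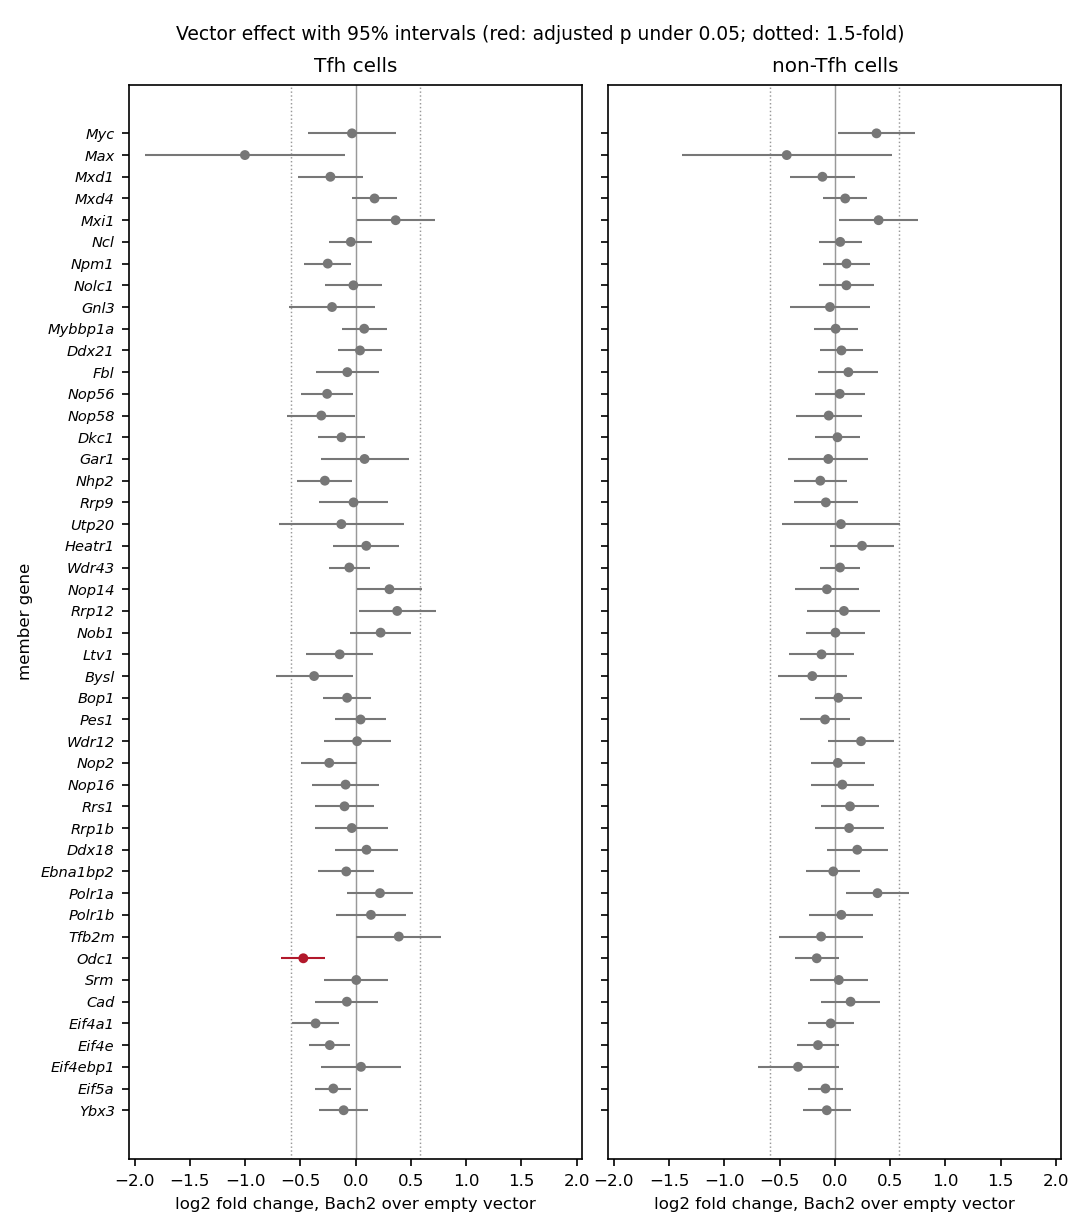
Log2 fold change of each member, Bach2 over empty vector, with 95% intervals, in Tfh cells and in non-Tfh cells. Most intervals cross 0, Odc1 at -0.47 in Tfh cells is the 1 member past the threshold, and Max has the widest interval.

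Other genes of the same pathways, from lists that hold none of the 46 members, give the frame for these counts. Over all tested genes, 11.3% were lower and 10.6% higher in Tfh cells with the empty vector, and 12.7% and 11.6% with Bach2. Of 80 other genes of ribosomal RNA processing and ribosome assembly, 20 were lower and 1 higher in Tfh cells with the empty vector (median -0.23), and 19 lower and 2 higher with Bach2 (median -0.25). The 21 called with the empty vector went to 9 and 13 without Tfh empty vector replicate 1 and 2 and to 6 and 11 without non-Tfh empty vector replicate 1 and 2, and the 21 with Bach2 to 13 and 11 without non-Tfh Bach2 replicate 1 and 2. The largest differences among them were in Mrto4 (-0.61 and -0.76) and Lyar (-0.68 and -0.65), a nucleolar growth regulator, with Nle1 at -0.74 with the empty vector and Ppan at -0.71 with Bach2. Nop10, the small H/ACA protein that works beside Dkc1 and Gar1, went the other way, from 85.1 to 103 CPM in non-Tfh and from 113 to 133 CPM in Tfh libraries. Of 33 genes of RNA polymerases I and III, 2 were lower with the empty vector (6.06%) and 3 with Bach2 (9.09%). Both shares were below those of all tested genes. Rrn3, the initiation factor of polymerase I, had -0.46 with the empty vector. The other Myc network list had 14 tested genes of 17, with Fbxw7, the ubiquitin ligase subunit that targets Myc protein, lower (-0.88) and the coactivator Trrap higher (0.31) with the empty vector, and Ruvbl1 lower (-0.36) with Bach2. In the Myc network list 14.3% and 7.14% passed in either direction, against 21.9% and 24.4% of all tested genes. The counts called in the polymerase and Myc network lists, between 1 and 3 in each cell type comparison, fell as low as 0 or 1 with a library left out. None of these 3 lists had a gene past the threshold for the vector in Tfh or in non-Tfh cells, although in Tfh cells the other Myc network list had 4 without a low-count filter and 3 with the replicate number as a block. Averaged over both cell types, Mga (0.41) and Mlxip (0.38), both of the extended Myc network, rose with Bach2 (adjusted p = 0.0287 and 0.0185). This count of 2 went to 0 without non-Tfh empty vector replicate 1 or 2, Tfh Bach2 replicate 2 or non-Tfh Bach2 replicate 2, and to 1 without Tfh empty vector replicate 2.

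The 78 genes of cytosolic ribosomal proteins, which the assembly factors join with ribosomal RNA, are described by the same counts. With the empty vector 5 were lower and 1 higher in Tfh cells (median -0.08, 7.69% called, background 21.9%). With Bach2 35 were lower and 1 higher (median -0.24, 46.2% called, background 24.4%). The interaction, which tests the difference between the vectors, called 0 of 78 and 0 of all 11475 tested genes. Its estimates were below 0 for 75 of the 78, with a median of -0.17. Rpl29 had the largest difference, at 105 and 114 CPM in Tfh against 159 and 160 CPM in non-Tfh cells with the empty vector and 104 and 112 against 174 and 199 CPM with Bach2 (-0.54 and -0.78). Rpsa was higher in Tfh cells with both vectors, by 0.47 with the empty vector. No ribosomal protein gene passed for the vector in either cell type, where the medians were 0.00 in Tfh and 0.16 in non-Tfh cells. In non-Tfh cells 77 of 78 estimates were above 0 and 60 genes had Bach2 libraries above the empty vector libraries without overlap (background 20.9%), with up to 4 called under other settings. Averaged over both cell types 3 were higher with Bach2, and 0 without non-Tfh empty vector replicate 1 or 2 or non-Tfh Bach2 replicate 2. The count of 36 with Bach2 went to 16 without Tfh Bach2 replicate 2 and to 18 and 15 without non-Tfh Bach2 replicate 1 and 2, and was 27 to 40 under the other settings. The 6 with the empty vector went to 3 without Tfh empty vector replicate 1 or either non-Tfh empty vector library. Ribosomal protein genes have many processed copies, so their read counts are uncertain.

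Genes of DNA replication and mitosis, the other arm of proliferation, are set beside the growth genes. With the Bach2 vector 21 of 32 were lower in Tfh cells than with the empty vector and 0 were higher (median -0.62). In non-Tfh cells 0 passed (median -0.16). The background was 1.16% of tested genes lower and 0.549% higher in Tfh cells, and 0.619% and 0.253% in non-Tfh cells. Cdc6, which loads the replicative helicase, was at 34.8 and 38.8 CPM in Tfh cells with the empty vector and 13.7 and 17.9 CPM with Bach2 (-1.22, adjusted p = 0.00339). Aurkb, a mitotic kinase, went from 65.4 and 85.4 to 39.8 and 40.9 CPM (-0.90, adjusted p = 0.0104), and Rrm2, which makes deoxynucleotides, from 260 and 355 to 169 and 167 CPM (-0.87, adjusted p = 0.0288). Between cell types, 8 of the 32 were lower and 1 higher in Tfh cells with the empty vector (median -0.15, background 11.3% lower and 10.6% higher). With Bach2 28 were lower and 1 higher (median -0.57, background 12.7% lower and 11.6% higher). In the same Tfh libraries the vector effects of the 46 members had a median of -0.07, with 29 below 0. The count of 21 fell to 3 without Tfh empty vector replicate 2 and to 8 without Tfh Bach2 replicate 2 and was 18 to 29 under the other settings. The cell type count of 9 with the empty vector fell to 3 without Tfh empty vector replicate 1 and to 2 without non-Tfh empty vector replicate 2. The difference from non-Tfh cells was tested with the interaction, which called 0 of 32 and 0 of all 11475 tested genes. All 32 estimates were below 0, with a median of -0.45. At an unadjusted p under 0.05 there were 23 (71.9%), against 4.70% of all tested genes.

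**Figure D5:**
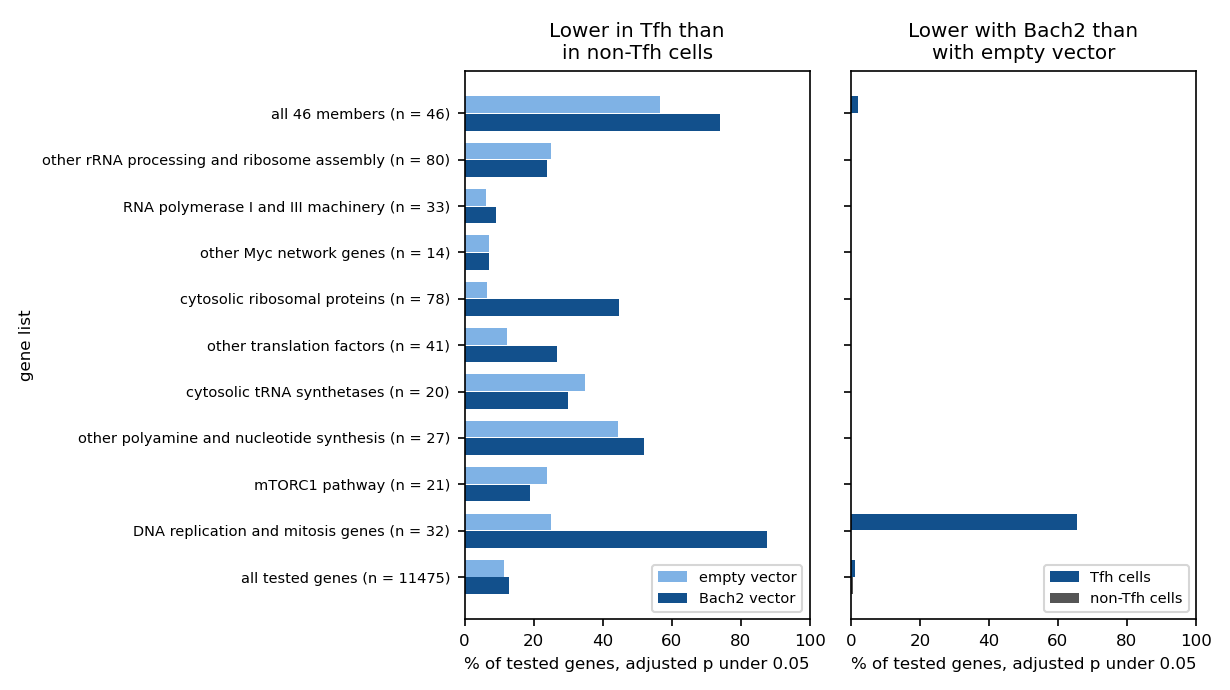
Percent of tested genes past the threshold and lower, for the 46 members, each list of other genes and all tested genes: left, those lower in Tfh cells, for each vector; right, lower with Bach2 than with the empty vector for each cell type. The members stand at 56.5% and 73.9% on the left and at 2.17% and 0% on the right, where the DNA replication and mitosis list reaches 65.6% in Tfh cells. On the left that list stands at 25% with the empty vector and, above the members, at 87.5% with Bach2.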

How the data were processed

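The deposited values are raw read counts per gene, whole numbers under Ensembl IDs. Per the submitters' processing notes the authors used TopHat2, Bowtie2 and featureCounts on GRCm38/mm10. For versions, annotation release, strand setting and multiply mapping reads: not given in the sources used here. Per the labels' protocols the libraries were made with Smart-Seq v4, which does not mark strand, and Nextera XT. Symbols and coordinates came from GENCODE M21 (37693 of 39179 IDs matched), promoter windows from RefSeq.

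From the counts, low genes were removed by filterByExpr of edgeR (counts of at least 10, total of at least 15). CPM values use TMM library sizes (factors 0.985 to 1.01). The robust quasi-likelihood test of edgeR 4.0.16 (R 4.3.3, limma 3.58.1) used all 8 libraries in 1 model of the 4 group means, with 4 residual degrees of freedom, with Benjamini-Hochberg adjustment over 11475 genes and a threshold of 0.05. The model gave 6 contrasts. An SE is the absolute log2 fold change divided by the square root of F. The biological coefficient of variation was 9.89%. The smallest two-sided p of an exact permutation of 2 against 2 libraries is 0.333. The scripts were tested on simulated data. Replicates were not copies (chi-square per degree of freedom 5.67 to 8.81).

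The members and lists were chosen with earlier results of these data known. Values are given for the Myc network, for every member past the threshold, for the extremes of each contrast and for up to 3 genes per list; others were named after their values were seen.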

Additional observations from a re-analysis of the deposited data

How the results depend on the processing

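Alternatives were DESeq2 1.42.0, RLE size factors, no low-count filter, a stricter filter (10 CPM in 2 libraries), a fit of only the libraries compared, a replicate block, and leaving out each library in turn; a library left alone in its group is assumed to vary like the other groups. The members called for the vector in Tfh cells (1) were 2 with DESeq2, 2 without a filter and 0 to 1 with a library left out. Averaged over cell types (1) they were 3 without a filter and 0 to 4 with a library left out. In non-Tfh cells and for the interaction they were 0 throughout. Members lower in Tfh cells with the empty vector (26) numbered 15 to 29 with a library left out, 15 without Tfh empty vector replicate 1 and 16 without either non-Tfh empty vector library, and with the Bach2 vector (34) 26 to 33. Of these calls, 13 of 26 and 22 of 34 held in every alternative, Myc, Srm, Cad, Bysl, Nop56, Dkc1, Rrp9, Mybbp1a, Polr1b, Eif5a and Ybx3 in both comparisons. Members lower with both vectors (25) numbered 15 to 29.

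With the replicate block the members called were 2 in Tfh cells, 4 averaged, 29 and 34 between cell types. The numbers were not shown to pair the samples: deviations of same-numbered libraries correlated over genes between -0.00413 and 0.240 (6 pairs of groups). All genes called for the vector in Tfh cells (196) numbered 313 with DESeq2, 736 without a filter, 473 with the block, 21 without Tfh empty vector replicate 2 and 35 without Tfh Bach2 replicate 2; in non-Tfh cells (100) 332 without a filter and 207 with the block. The Myc vector effect in Tfh cells (-0.03) ran from -0.36 to 0.25 with a library left out and turned to 0.07 without Tfh empty vector replicate 2 and 0.25 without Tfh Bach2 replicate 1. With 2 libraries a group, effects within 1.5-fold in either direction often cannot be called.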

Other observations

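Growth genes next to the ribosome were also described by cell type. The background was again 11.3% of tested genes lower and 10.6% higher with the empty vector, and 12.7% and 11.6% with Bach2. Of 27 other genes of polyamine and nucleotide synthesis, 12 were lower and 4 higher in Tfh than in non-Tfh cells with the empty vector (median -0.31), and 14 lower and 3 higher with Bach2 (median -0.43). The 16 called with the empty vector went to 9 without Tfh empty vector replicate 1 or 2, and to 6 and 4 without non-Tfh empty vector replicate 1 and 2. Gart, which carries out early steps of purine synthesis, was at 67.7 and 71.6 CPM in Tfh and 123 and 102 CPM in non-Tfh cells with the empty vector (-0.69, adjusted p = 0.000289). Oaz2, an antizyme that lowers ornithine decarboxylase protein, went the other way, at 81.2 and 67.1 against 39.2 and 38.1 CPM with the empty vector (0.94, adjusted p = 7.09e-05) and 90.6 and 81.2 against 42.0 and 43.2 CPM with Bach2 (1.01, adjusted p = 3.52e-05). So the antizyme Oaz2 was higher and Srm lower in every Tfh library than in any non-Tfh library, while Odc1 had -0.01 with the empty vector and was lower with Bach2 (-0.32, adjusted p = 0.0208).

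Of 20 cytosolic tRNA synthetases, 7 were lower and 1 higher in Tfh cells with the empty vector, and 6 lower and 0 higher with Bach2. The 8 called with the empty vector went to 3 and 5 without Tfh empty vector replicate 1 and 2 and to 2 and 3 without non-Tfh empty vector replicate 1 and 2, and the 6 with Bach2 to 3 without either non-Tfh Bach2 library and in a fit of only the 4 libraries compared. Vars, the valine enzyme, was at 187 and 169 CPM in Tfh and 299 and 312 CPM in non-Tfh cells with the empty vector (-0.78, adjusted p = 3.78e-05), and had -0.96 with Bach2 (adjusted p = 5.3e-06). Of 21 tested genes of the mTORC1 pathway, 5 were lower and 2 higher with the empty vector and 4 lower and 2 higher with Bach2, with medians of -0.09 and 0.01. The 7 with the empty vector went to 4 without Tfh empty vector replicate 1 or non-Tfh empty vector replicate 2. Slc7a5, a subunit of the transporter of large neutral amino acids, was at 44.3 and 49.5 CPM in Tfh and 109 and 110 CPM in non-Tfh cells with the empty vector (-1.23, adjusted p = 1.4e-06), and had -1.30 with Bach2 (adjusted p = 1.12e-06). Of 41 other translation factors, 5 were lower with the empty vector (12.2%, near the background of 11.3%). With Bach2 11 were lower and 1 higher (29.3% in either direction, background 24.4%). The 5 went to 2, 2 and 3 without Tfh empty vector replicate 1 and non-Tfh empty vector replicate 1 and 2, and the 12 to 6 without Tfh Bach2 replicate 2 or non-Tfh Bach2 replicate 1. For the vector itself, 0 genes of these 4 lists passed in Tfh or in non-Tfh cells. Without a low-count filter 2 polyamine and nucleotide genes and 1 mTORC1 gene passed in Tfh cells, as they did in number with the replicate block. Averaged over both cell types 1 translation factor was higher with Bach2, Eif4g3 (0.23, adjusted p = 0.0495), a call lost with DESeq2 and without any 1 of the 4 empty vector libraries, Tfh Bach2 replicate 2 or non-Tfh Bach2 replicate 2. These lists were chosen with earlier results of these data known.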
